A study of Homo sapiens with 9 samples.

Results

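The genes described here encode enzymes that add or remove methyl and acetyl groups on histone lysines, together with related proteins of the same families. They were chosen by gene symbol from the patterns KDM, SETD, SETDB, SMYD, SUV39H, SUV420H, EHMT, PRDM, HDAC, SIRT, KAT and NSD1, without KDM3A and KAT5. The rule used no measured value, but it was set with earlier results of these data known. The symbols gave 79 genes of the 51796 in the count table, and 75 of them passed the filter on low counts that left 18292 genes for testing. The pattern also allows the older names of the MLL methyltransferases, but those matched no gene, since the files use KMT2 symbols for them.

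A549, an epithelial cell line from a human lung adenocarcinoma, was treated for 7 days, and each group had 3 RNA sequencing libraries made after removal of ribosomal RNA. The GSK591 group received 1 µM GSK591, which inhibits PRMT5, the chief source of symmetric dimethylarginine. The MS023 group received 1 µM MS023, an inhibitor of the type I arginine methyltransferases, which place asymmetric dimethylarginine. The DMSO group was the control, and the labels name no genetic change in any group. Treated plates were seeded with 0.4 and DMSO plates with 0.2 times 1e5 cells, so in both comparisons with DMSO the seeded number and the inhibitor cannot be told apart. Libraries held between 31398075 and 51244525 counts. The labels do not say whether the 3 RNA samples of a group came from separate cultures, so p-values measure the spread between these samples, which may be technical. GSK591 replicate 3 had 932.5 CPM (counts set against the TMM-scaled library size) of mitochondrial ribosomal RNA and DMSO replicate 1 had 20.7 CPM, against 0.41 to 17.5 CPM in the other libraries. The epithelial markers KRT7, KRT8, KRT18, CDH1 and EPCAM summed to between 7522 and 7791 CPM in GSK591 libraries, between 5075 and 5276 CPM in MS023 libraries, and between 6354 and 6481 CPM in DMSO libraries. EPCAM, within that sum, ran in the other order, at 6.43 CPM with GSK591, 21.04 CPM with MS023 and 13.5 CPM with DMSO. Of the leukocyte markers, CD14 averaged 7.46 CPM with GSK591, 6.40 CPM with MS023 and 8.27 CPM with DMSO, PTPRC averaged at most 0.0176 CPM in any group, and CD3E held 1 count in all. Of 3 fibroblast and endothelial markers, DCN and VWF were near 0, and COL1A1 averaged 7.18 CPM in GSK591, 25.1 CPM in MS023 and 11.7 CPM in DMSO libraries, and its part in the MS023 results was not tested.

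Histone tails carry lysines whose acetylation, placed by acetyltransferases (KATs) and removed by deacetylases (HDACs) and the NAD-dependent sirtuins, generally accompanies open chromatin. Lysine methylation is placed mostly by enzymes with a SET domain and removed by amine oxidase or JmjC demethylases, and its effect depends on the residue. Methylated H3K4 and H3K36 lie in active genes, and trimethylated H3K9 and H4K20 in heterochromatin. Arginine methyltransferases modify residues on the same tails. Many members work inside complexes, as HDAC1 and HDAC2 do in the SIN3, NuRD and CoREST complexes.

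HDAC1, SUV39H2 and SIRT1 show 3 of the patterns described below. HDAC1 is a class I deacetylase (ENSG00000116478, hg19 chromosome 1, 32757687 to 32799236). It had 94.6, 88.6 and 94.0 CPM in GSK591 libraries, 190, 193 and 190 CPM in MS023 libraries, and 125, 129 and 122 CPM in DMSO libraries. The groups did not overlap, and HDAC1 was lower with GSK591 and higher with MS023 (log2 change against DMSO -0.44 ± 0.04 SE, adjusted p = 9.68e-08, and 0.61 ± 0.04, adjusted p = 5.93e-09). Unless FPKM or another tool is named, adjusted p-values are from edgeR's two-sided quasi-likelihood test with Benjamini-Hochberg adjustment over the 18292 genes, with a threshold of 0.05. SUV39H2, which trimethylates H3K9 (ENSG00000152455, chromosome 10, 14920819 to 14946314), had 21.8, 21.2 and 21.7 CPM in GSK591 libraries, 35.1, 33.4 and 34.6 CPM in MS023 libraries, and 39.5, 39.7 and 38.0 CPM in DMSO libraries. Its fall was much larger with GSK591 (-0.86 ± 0.04, adjusted p = 2.23e-10) than with MS023 (-0.18 ± 0.04, adjusted p = 0.00139), and the inhibitors themselves differed (MS023 over GSK591 0.67 ± 0.04, adjusted p = 1.96e-09). SIRT1, a nuclear NAD-dependent deacetylase (ENSG00000096717, chromosome 10, 69644427 to 69678147), had 66.6, 66.3 and 66.4 CPM in GSK591 libraries, 66.6, 69.6 and 66.8 CPM in MS023 libraries, and 91.1, 93.6 and 89.4 CPM in DMSO libraries. It fell in both inhibitor groups (-0.46 ± 0.03, adjusted p = 2.27e-08, with GSK591 and -0.43 ± 0.03, adjusted p = 8.51e-08, with MS023), and the treated groups overlapped (0.03 ± 0.03, adjusted p = 0.518). In bulk RNA, fewer cells that express a gene and less of its RNA per cell cannot be told apart.

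The 250 bases before the start of these genes are shown because each stands for one of the patterns: opposite, mainly GSK591, and shared. The sequences are RefSeq's for GRCh38.p14, plus strand, at chr1:32291833-32292082 for HDAC1, chr10:14878616-14878865 for SUV39H2 and chr10:67884406-67884655 for SIRT1. Capitals mark matches on either strand. The motifs searched were the box for SP-type factors, spelled GGGCGG, the box bound by NF-Y, spelled CCAAT, and an E2F-type motif, spelled TTTNNCGC. Neighbouring matches may share bases.
HDAC1: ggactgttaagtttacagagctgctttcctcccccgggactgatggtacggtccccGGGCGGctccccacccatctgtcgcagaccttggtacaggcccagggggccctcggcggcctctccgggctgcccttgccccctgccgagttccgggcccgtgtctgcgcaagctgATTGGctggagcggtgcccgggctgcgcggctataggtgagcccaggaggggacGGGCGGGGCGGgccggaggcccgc
SUV39H2: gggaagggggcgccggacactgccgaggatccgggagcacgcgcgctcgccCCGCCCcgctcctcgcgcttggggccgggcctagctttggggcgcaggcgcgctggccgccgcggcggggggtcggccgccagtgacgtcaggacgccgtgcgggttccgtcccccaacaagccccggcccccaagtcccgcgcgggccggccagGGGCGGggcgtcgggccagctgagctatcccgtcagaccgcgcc
SIRT1: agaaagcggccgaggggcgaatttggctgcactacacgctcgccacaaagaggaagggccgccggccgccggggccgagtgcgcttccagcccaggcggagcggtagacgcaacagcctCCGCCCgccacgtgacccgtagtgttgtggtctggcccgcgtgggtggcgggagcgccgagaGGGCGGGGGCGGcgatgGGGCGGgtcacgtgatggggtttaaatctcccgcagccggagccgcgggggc
HDAC1 held 1 CCAAT and 3 GGGCGG matches, SUV39H2 held 2 GGGCGG matches, SIRT1 held 4 GGGCGG matches, and none of the 3 windows held TTTNNCGC. Promoters were matched for 70 of the 79 members, with 113 starts. GGGCGG occurred in 59.3% of the member starts and in 42.6% of all 35114 starts in the table, CCAAT in 34.5% and 32.0%, and TTTNNCGC in 7.08% and 5.92%. These matches are a description of letters and not of bound sites.

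With GSK591, 25 of the 75 tested members were higher and 26 lower than with DMSO. That is 33.3% and 34.7% of members, beside 30.1% higher and 32.4% lower among all genes tested (62.6% called either way), so the members' share lay near the background. Scaled by total counts, the split became 30 higher and 20 lower, beside 6286 higher and 5027 lower of all genes, against 5510 and 5933 with the scaling used here. With MS023, 23 members were higher and 19 lower (30.7% and 25.3%, beside 25.1% and 25.9% of all genes, 51.0% either way). Between the inhibitors, 28 members were higher and 26 lower with MS023 than with GSK591 (37.3% and 34.7%, beside 33.6% and 31.7% of all genes, 65.4% either way). Members moved by small amounts: the median size of the log2 change was 0.21 with GSK591, 0.18 with MS023 and 0.22 between the inhibitors, against 0.33, 0.24 and 0.36 over all genes tested. The 2 sets were not matched for level. A filter of 1 CPM in 3 libraries left 71 members and 14486 genes, and the part of level in these sizes was not tested. Changes of at least 2-fold with an adjusted p under 0.05 were found in 4 members with GSK591 (5.33%, beside 11.8% of all genes), 2 with MS023 (2.67%, beside 8.19%) and 7 between the inhibitors (9.33%, beside 15.7%). The 4 with GSK591 were HDAC10, KDM4D, PRDM6 and PRDM8, all of low count, and the calls of PRDM6 and PRDM8 depended on single libraries. Without DMSO replicate 1 and GSK591 replicate 3, the libraries with the most mitochondrial ribosomal RNA of their groups, 25 members were higher and 20 lower with GSK591, 23 higher and 18 lower with MS023, and 25 higher and 25 lower between the inhibitors. That fit called 5251 of 18565 genes higher and 5313 lower with GSK591, and 4779 and 4435 with MS023. Between the inhibitors it called 5974 higher and 5576 lower. Leaving out 1 library at a time ended 11 of the 51 calls for GSK591, 9 of the 42 for MS023 and 14 of the 54 between the inhibitors.

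**Figure D1:**
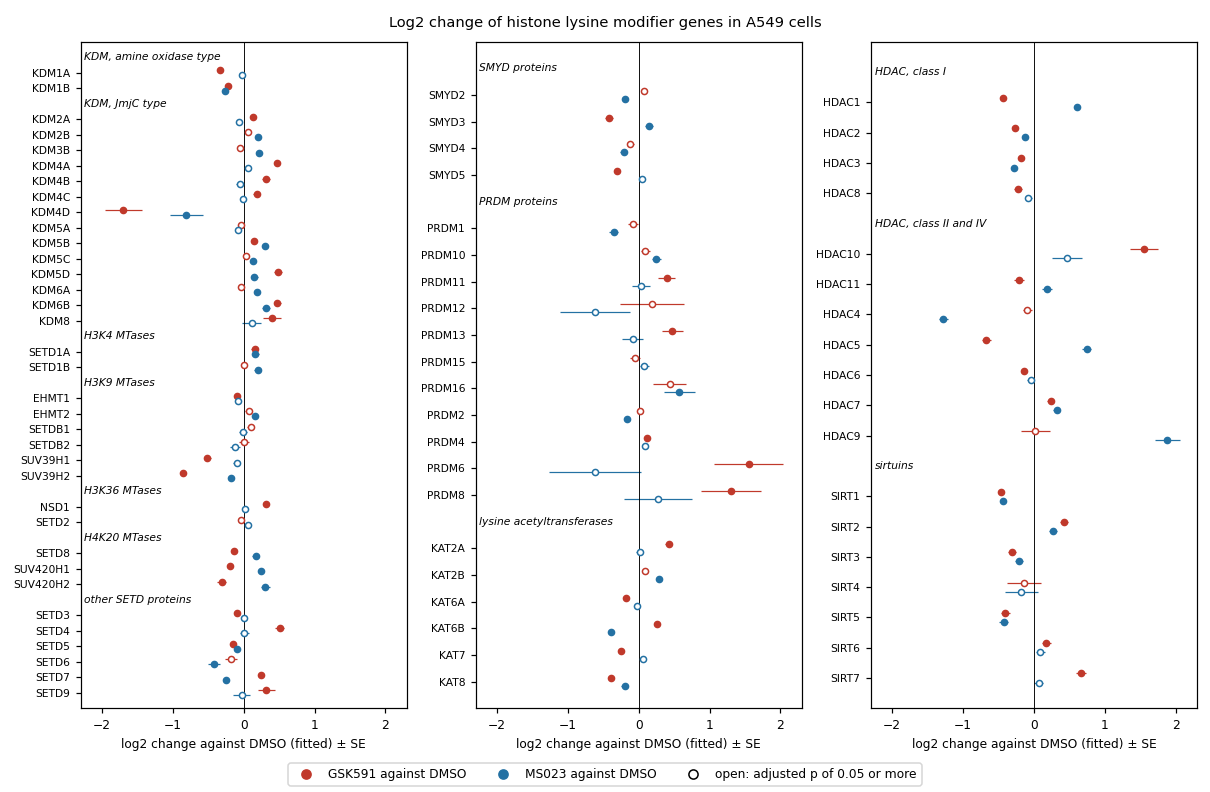
Fitted log2 change of the tested members, without 1 that is not reported here, with GSK591 (red, upper point of each row) and MS023 (blue, lower point) against DMSO, grouped by enzyme class, with bars of 1 SE from the fit on 3 libraries per group; open points have an adjusted p of 0.05 or more. Most points lie within 0.5 of 0, HDAC1, HDAC5 and the H4K20 methyltransferases have red and blue points on opposite sides, and the longest bars belong to members of low count such as PRDM6.

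Both inhibitor groups were compared with the same DMSO libraries, so the 2 sets of calls share their control. Set side by side, more members were called in the same direction than in opposite ones, with 6 higher and 10 lower in both treated groups. A further 17 were higher and 9 lower with GSK591 only, and 10 higher and 7 lower with MS023 only. SETD8, SUV420H1, SUV420H2, HDAC1, HDAC5, HDAC11 and SMYD3 were lower with GSK591 and higher with MS023. KAT6B and SETD7 were higher with GSK591 and lower with MS023. The matching shares of all genes tested are not given here. SETD2, SETDB1, SETDB2, KDM5A, PRDM12, PRDM15 and SIRT4 did not pass the test in either comparison with DMSO. A call with one inhibitor alone does not show that the inhibitors differ, and the direct comparison is given for that.

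All 4 tested class I deacetylases were lower with GSK591, as were 32.4% of all genes tested. With MS023 HDAC1 was higher and HDAC2 and HDAC3 lower. HDAC2, the close relative of HDAC1, averaged 111 ± 3.56 CPM with GSK591, 124 ± 3.28 CPM with MS023 and 134 ± 1.65 CPM with DMSO (SD, n = 3 each), a log2 change of -0.27 ± 0.04 for GSK591 (adjusted p = 1.12e-05). HDAC3, the deacetylase of the NCOR and SMRT complexes, had 34.0, 32.0 and 33.5 CPM with GSK591, 30.1, 31.7 and 30.9 CPM with MS023, and 37.9, 36.9 and 38.0 CPM with DMSO. It lay below DMSO in both treated groups (-0.18 ± 0.04, adjusted p = 0.0013, and -0.28 ± 0.04, adjusted p = 4.43e-05), but on the authors' FPKM (fragments per kilobase, relative to depth), tested as log2(FPKM + 1) with limma, the GSK591 change was 0.01 (adjusted p = 0.905) and the MS023 change did not pass (-0.18, adjusted p = 0.0562). The p-values given below for FPKM are from this fit, with no filter on low values unless one is named. With a filter of FPKM 1 in 3 libraries, the MS023 change of HDAC3 passed. That filter also let the GSK591 changes of HDAC8, KDM2A and SIRT3 pass, and the MS023 changes of PRDM1, SETD6, SIRT3 and SMYD4. HDAC8 fell by 0.23 ± 0.06 with GSK591 (adjusted p = 0.00219; 0.0608 in FPKM). HDAC1 thus differed 2.06-fold between MS023 and GSK591 (log2 1.05 ± 0.04, adjusted p = 4.95e-12), while HDAC2 differed by 0.15 ± 0.04 (adjusted p = 0.00192). The HDAC2 call for MS023 (-0.12, adjusted p = 0.0111) did not survive the loss of DMSO replicate 2 (adjusted p = 0.0631) or of MS023 replicate 2 (adjusted p = 0.0845).

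The class II deacetylases, which shuttle between nucleus and cytoplasm or act outside the nucleus, held the largest changes with MS023, those of HDAC9 and HDAC4. HDAC5 (ENSG00000108840, chromosome 17, 42154114 to 42201070) had 13.0, 10.9 and 12.9 CPM in GSK591 libraries, 31.2, 33.8 and 33.4 CPM in MS023 libraries, and 20.1, 18.7 and 19.9 CPM in DMSO libraries. Like HDAC1 it lay in 3 separate ranges, 1.59-fold lower with GSK591 and 1.68-fold higher with MS023 than with DMSO (-0.67 ± 0.07, adjusted p = 6.03e-07, and 0.74 ± 0.06, adjusted p = 1.98e-07). HDAC4 (ENSG00000068024, chromosome 2, 239969864 to 240323348) had 60.1, 56.1 and 53.3 CPM in GSK591 libraries, 27.6, 23.2 and 23.5 CPM in MS023 libraries, and 63.8, 57.1 and 60.1 CPM in DMSO libraries. HDAC4 was 2.43-fold lower with MS023 (-1.28 ± 0.07, adjusted p = 1.18e-09), while the GSK591 and DMSO libraries overlapped (-0.10 ± 0.06, adjusted p = 0.212). HDAC9 (ENSG00000048052, chromosome 7, 18126572 to 19042039) was rare, with 0.93, 0.78 and 0.96 CPM in GSK591 libraries, 2.79, 3.49 and 3.48 CPM in MS023 libraries, and 0.78, 1.06 and 0.76 CPM in DMSO libraries. Every MS023 library lay above the other 6, and HDAC9 was 3.70-fold higher with MS023 than with DMSO (1.89 ± 0.17, adjusted p = 5.04e-07). HDAC4, HDAC5 and HDAC9 are all class IIa enzymes, so with MS023 2 of them were higher and 1 lower. HDAC7, also class IIa, averaged 73.2 ± 1.45 CPM with GSK591, 77.5 ± 3.86 CPM with MS023 and 62.1 ± 3.66 CPM with DMSO, and was higher in both treated groups (0.24 ± 0.05, adjusted p = 0.000472, and 0.32 ± 0.05, adjusted p = 5.14e-05).

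Of the other class II and IV enzymes, HDAC10, a cytoplasmic polyamine deacetylase (ENSG00000100429, chromosome 22, 50683612 to 50689834), was higher with GSK591. It had 1.65, 2.33 and 1.88 CPM in GSK591 libraries, 0.94, 0.83 and 0.99 CPM in MS023 libraries, and 0.63, 0.63 and 0.74 CPM in DMSO libraries. GSK591 libraries lay above all others (2.94-fold over DMSO, log2 1.55 ± 0.19, adjusted p = 5.74e-06), and the MS023 change did not pass the test on the counts (0.47 ± 0.21, adjusted p = 0.0807) but did in FPKM (0.48, adjusted p = 0.0132). Its span overlaps MAPK12, so reads may have been split between the genes, and its FPKM averaged 7.03 with GSK591, 4.21 with MS023 and 2.75 with DMSO, a higher rank than its counts give. HDAC6, the tubulin deacetylase, fell by 0.15 ± 0.04 with GSK591 (adjusted p = 0.00917), a call lost without DMSO replicate 1 (adjusted p = 0.0755) and in FPKM. HDAC11, the class IV enzyme, averaged 9.71 ± 0.37 CPM with GSK591, 12.8 ± 0.29 CPM with MS023 and 11.3 ± 1.07 CPM with DMSO. Its changes of -0.21 (adjusted p = 0.0189) and 0.18 (adjusted p = 0.0422) each lost the call without any 1 of 4 libraries, with adjusted p between 0.0679 and 0.137 for GSK591 (DMSO 1 and 2, GSK591 1 and 3) and between 0.054 and 0.213 for MS023 (DMSO 3, GSK591 2, MS023 2 and 3). The difference between the inhibitors held in every such fit on the counts (0.40 ± 0.07, adjusted p = 0.00019), but not in FPKM (adjusted p = 0.145).

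**Figure D2:**
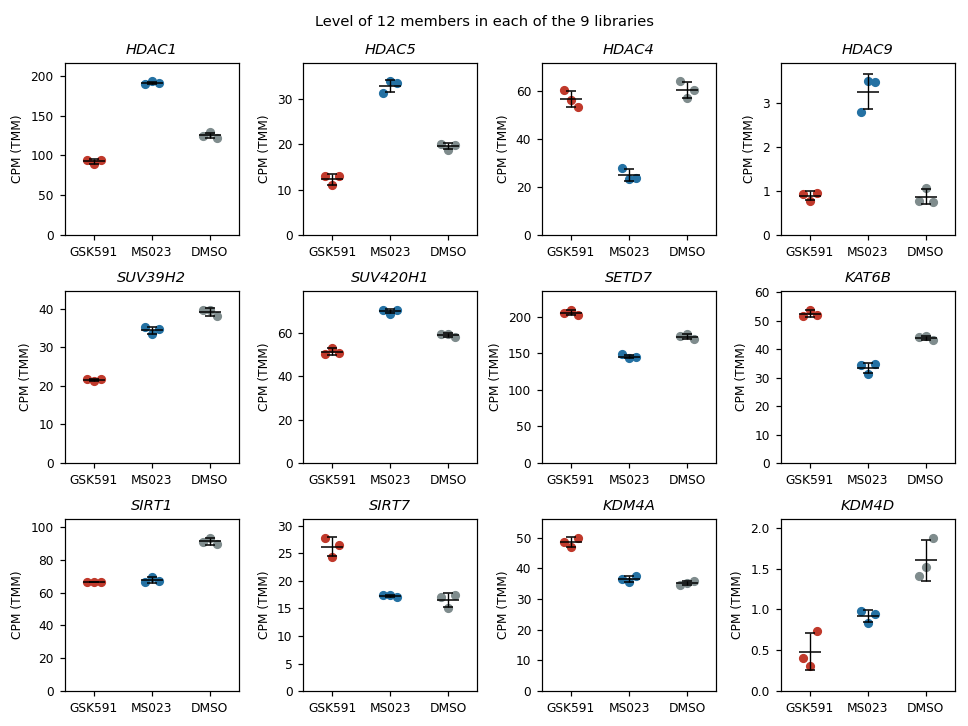
CPM after TMM scaling of 12 members in every library, with points for single libraries and bars for the mean and SD of 3 libraries in the GSK591, MS023 and DMSO groups; each axis starts at 0. HDAC1, HDAC5 and SUV420H1 run lowest with GSK591 and highest with MS023, SETD7 and KAT6B the reverse, SIRT1 is lower in both treated groups, and HDAC4 and HDAC9 stand apart only in the MS023 libraries.

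The sirtuins split by member. SIRT1 and the mitochondrial SIRT3 and SIRT5 were lower in both treated groups, SIRT2 was higher in both, and SIRT7 was higher with GSK591. SIRT5, which removes succinyl and other acyl groups, had 10.7, 9.64 and 10.1 CPM in GSK591 libraries, 10.3, 9.86 and 9.71 CPM in MS023 libraries, and 13.9, 13.3 and 13.0 CPM in DMSO libraries. All 6 treated libraries lay below all DMSO libraries (-0.41 ± 0.06, adjusted p = 4.3e-05, with GSK591 and -0.43 ± 0.06, adjusted p = 4.25e-05, with MS023). SIRT3 fell by 0.31 ± 0.06 with GSK591 (adjusted p = 0.000224) and by 0.21 ± 0.06 with MS023 (adjusted p = 0.0049), but in FPKM without a filter neither change passed (adjusted p = 0.0516 and 0.108). SIRT2, a mainly cytoplasmic deacetylase of tubulin and H4K16, had 30.9, 33.0 and 35.3 CPM in GSK591 libraries, 28.6, 30.1 and 30.5 CPM in MS023 libraries, and 25.5, 23.4 and 25.1 CPM in DMSO libraries. The treated libraries did not overlap the DMSO libraries (0.43 ± 0.05, adjusted p = 7.9e-06, and 0.27 ± 0.05, adjusted p = 0.000808). SIRT7, a nucleolar deacetylase of H3K18 (ENSG00000187531, chromosome 17, 79869815 to 79879199), had 27.9, 24.3 and 26.5 CPM in GSK591 libraries, 17.4, 17.5 and 17.0 CPM in MS023 libraries, and 17.1, 15.02 and 17.5 CPM in DMSO libraries. It was 1.59-fold higher with GSK591 than with DMSO (0.67 ± 0.06, adjusted p = 4.44e-07) and lower with MS023 than with GSK591 (-0.60 ± 0.06, adjusted p = 9.73e-07), and MS023 and DMSO overlapped (0.07 ± 0.07, adjusted p = 0.428). SIRT2, SIRT3 and SIRT7 overlap NFKBIB, PSMD13 and MAFG in the genome, and the strand setting of the counting is not given in the sources used here. SIRT6 (0.18 with GSK591, adjusted p = 0.0307) reached only 0.104 with DMSO replicate 2 left out and 0.0811 with GSK591 replicate 3 left out, and SIRT4, at 0.70 CPM with GSK591, 0.67 CPM with MS023 and 0.78 CPM with DMSO, passed in none of the 3 comparisons.

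Among the 6 acetyltransferases, KAT2A was higher with GSK591 and KAT6B opposite in the treated groups, while KAT6A, KAT7 and KAT8 were lower with GSK591. KAT6B (MORF, ENSG00000156650, chromosome 10, 76585340 to 76792380), an H3K23 acetyltransferase, had 51.7, 53.9 and 51.9 CPM in GSK591 libraries, 34.3, 31.4 and 34.7 CPM in MS023 libraries, and 44.3, 44.5 and 43.3 CPM in DMSO libraries. The 3 groups did not overlap (0.25 ± 0.04, adjusted p = 0.000104, with GSK591, -0.39 ± 0.04, adjusted p = 2.89e-06, with MS023, and -0.65 ± 0.04 for MS023 over GSK591, adjusted p = 4.86e-09). KAT2A (GCN5, the acetyltransferase of the SAGA complex) had 83.6, 81.1 and 82.3 CPM in GSK591 libraries, 59.7, 61.3 and 65.1 CPM in MS023 libraries, and 62.5, 56.6 and 65.7 CPM in DMSO libraries, so GSK591 stood alone (0.42 ± 0.05, adjusted p = 4.4e-06). KAT2B (PCAF), its paralog, instead rose with MS023 (0.29 ± 0.04, adjusted p = 5.31e-05). KAT8 (MOF), the H4K16 acetyltransferase, averaged 23.2 ± 0.90 CPM with GSK591, 26.5 ± 0.57 CPM with MS023 and 30.5 ± 1.02 CPM with DMSO, below DMSO in both (-0.39 ± 0.05, adjusted p = 3.2e-06, and -0.20 ± 0.05, adjusted p = 0.00184). KAT7 (HBO1, which acetylates H3 and H4 near replication origins) fell by 0.25 ± 0.04 with GSK591 (adjusted p = 0.00019). KAT6A (MOZ) fell by 0.18 ± 0.04 with GSK591 (adjusted p = 0.000405), and in FPKM its change of -0.17 did not pass (adjusted p = 0.168).

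All 3 H4K20 methyltransferases were lower with GSK591 (beside 32.4% of all genes tested) and higher with MS023 (beside 25.1%). SUV420H1 (ENSG00000110066, chromosome 11, 67922330 to 67981295), which adds methyl groups to the monomethylated residue, had 50.4, 52.98 and 50.4 CPM in GSK591 libraries, 70.5, 68.8 and 70.6 CPM in MS023 libraries, and 59.4, 59.2 and 58.0 CPM in DMSO libraries. Its groups did not overlap (-0.20 ± 0.04, adjusted p = 0.000191, with GSK591 and 0.25 ± 0.04, adjusted p = 3.83e-05, with MS023). SUV420H2, its paralog, had 11.3, 10.4 and 11.2 CPM in GSK591 libraries, 16.9, 16.2 and 17.5 CPM in MS023 libraries, and 14.1, 12.7 and 14.1 CPM in DMSO libraries. It also fell into 3 separate ranges (-0.31 ± 0.06, adjusted p = 0.0006, and 0.31 ± 0.06, adjusted p = 0.000691), though the MS023 change did not pass in FPKM (0.22, adjusted p = 0.147). SETD8, which places the first methyl group, averaged 54.9 ± 1.31 CPM with GSK591, 67.7 ± 1.09 CPM with MS023 and 60.3 ± 3.803 CPM with DMSO. Its GSK591 call (-0.13 ± 0.04, adjusted p = 0.0163) was lost without DMSO replicate 1, GSK591 replicate 1 or GSK591 replicate 2 (adjusted p between 0.0645 and 0.176), and its MS023 call (0.17 ± 0.04, adjusted p = 0.00525) was kept in all of these but not in FPKM (adjusted p = 0.203). In FPKM the GSK591 change of SETD8 did not pass either. Between the inhibitors all 3 were higher with MS023, by 0.30 for SETD8, 0.45 for SUV420H1 and 0.62 for SUV420H2 (adjusted p at most 2.58e-05).

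Of the 6 H3K9 methyltransferases, SUV39H1 and SUV39H2 had the largest changes. SUV39H1 (ENSG00000101945, chromosome X, 48553945 to 48567403) had 14.9, 14.9 and 15.2 CPM in GSK591 libraries, 19.3, 20.9 and 19.7 CPM in MS023 libraries, and 21.3, 20.5 and 22.4 CPM in DMSO libraries. GSK591 libraries lay below all others (-0.51 ± 0.05, adjusted p = 9.7e-07), and MS023 and DMSO overlapped (-0.10 ± 0.05, adjusted p = 0.121). SUV39H2, described above, fell further with GSK591. Its smaller MS023 change did not pass in FPKM (-0.12, adjusted p = 0.302), and its span overlaps DCLRE1C. The euchromatic enzymes moved little: EHMT2 (G9a) was higher with MS023 (0.16 ± 0.05, adjusted p = 0.00803; 0.0507 without MS023 replicate 2), and the EHMT1 (GLP) change of -0.09 with GSK591 (adjusted p = 0.027) lost its call without any 1 of 7 libraries (DMSO 1 and 3, GSK591 1, 2 and 3, MS023 2 and 3; adjusted p between 0.0505 and 0.209). In FPKM with no filter the EHMT2 change did not pass at a pseudocount of 1 but did at 0.1. SETDB1 and SETDB2 averaged 37.8 and 10.1 CPM with GSK591, 35.2 and 9.21 CPM with MS023, and 35.4 and 9.97 CPM with DMSO. Neither passed in any of the 3 comparisons, though SETDB1 passed between GSK591 and DMSO with scaling by total counts (adjusted p = 0.0221) and with a filter of 1 CPM (adjusted p = 0.0268), and between the inhibitors in 4 alternatives (lowest adjusted p = 0.018).

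The H3K4 and H3K36 methyltransferases left in the set are few. NSD1, which dimethylates H3K36, had 172, 176 and 166 CPM in GSK591 libraries, 141, 138 and 140 CPM in MS023 libraries, and 140, 139 and 135 CPM in DMSO libraries. It was higher with GSK591 in the counts (0.31 ± 0.04, adjusted p = 2.35e-06), but in FPKM, where it averaged 22.8 with GSK591, 22.3 with MS023 and 21.5 with DMSO, it did not pass (0.09, adjusted p = 0.75). SETD2, which trimethylates H3K36, averaged 107 ± 4.87 CPM with GSK591, 115 ± 1.84 CPM with MS023 and 110 ± 1.77 CPM with DMSO, and passed in neither comparison with DMSO (adjusted p = 0.352 and 0.144). SETD1A and SETD1B carry the catalytic domain of the SETD1 H3K4 complexes. SETD1A changed by 0.15 ± 0.05 with GSK591 (adjusted p = 0.0121) and by 0.16 ± 0.05 with MS023 (adjusted p = 0.0122; 0.0683 without MS023 replicate 2), and SETD1B rose by 0.20 ± 0.05 with MS023 (adjusted p = 0.00249). Neither SETD1A change passed in FPKM (adjusted p = 0.568 and 0.389).

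Among the other SETD proteins, SETD7 was opposite in the treated groups. SETD7 (ENSG00000145391, chromosome 4, 140417095 to 140527853), which monomethylates H3K4 and other proteins, had 205, 210 and 202 CPM in GSK591 libraries, 148, 144 and 144 CPM in MS023 libraries, and 173, 176 and 169 CPM in DMSO libraries. The 3 groups were separate (0.25 ± 0.03, adjusted p = 1.8e-05, with GSK591 and -0.25 ± 0.03, adjusted p = 3.48e-05, with MS023). SETD4 rose with GSK591 (0.51 ± 0.06, adjusted p = 3.12e-06), from counts that overlap CBR1, and its FPKM change of 0.13 did not pass (adjusted p = 0.411). SETD6, which methylates the NF-kB subunit RELA, fell by 0.41 ± 0.08 with MS023 (adjusted p = 0.000743), and not past the threshold in FPKM without a filter (adjusted p = 0.128). SETD3, an actin histidine methyltransferase, SETD5 and SETD9 changed by at most 0.32 with GSK591, and their calls depended on the libraries in the fit. SETD3 (-0.09, adjusted p = 0.031) lost its call without any 1 of 6 libraries (DMSO 1 and 2, GSK591 1 and 2, MS023 2 and 3; adjusted p between 0.0706 and 0.231). SETD9 (0.32, adjusted p = 0.0265) lost its call without any 1 of 4 (DMSO 1 and 3, GSK591 2 and 3; adjusted p between 0.0536 and 0.121). For SETD5 the call with MS023 (-0.10, adjusted p = 0.0276) was lost without any 1 of 7 (adjusted p between 0.0527 and 0.148; only DMSO replicate 3 and GSK591 replicate 2 could be left out), and that with GSK591 (-0.15, adjusted p = 0.0023) without DMSO replicate 1 and GSK591 replicate 3 together (adjusted p = 0.074).

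SMYD proteins join a SET domain to a MYND domain. SMYD3 had 12.6, 11.97 and 12.4 CPM in GSK591 libraries, 17.7, 18.4 and 18.3 CPM in MS023 libraries, and 17.3, 16.6 and 15.5 CPM in DMSO libraries. GSK591 libraries lay below the rest (-0.42 ± 0.06, adjusted p = 1.52e-05). The MS023 change (0.14 ± 0.05, adjusted p = 0.0466) lost its call without any 1 of 5 libraries (DMSO 3, GSK591 2, MS023 1, 2 and 3; adjusted p between 0.0528 and 0.193) and with DESeq2 (adjusted p = 0.153). SMYD5 fell by 0.31 ± 0.04 with GSK591 (adjusted p = 1.65e-05), and with MS023 SMYD2, a methyltransferase of p53 and other proteins, and SMYD4 fell by 0.19 ± 0.04 (adjusted p = 0.00189) and 0.21 ± 0.05 (adjusted p = 0.00266; 0.0661 in FPKM). SMYD1, a muscle protein, had no count in any library.

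Both amine oxidase demethylases were lower with GSK591, as were 32.4% of all genes tested. KDM1A (LSD1), which removes H3K4 methylation within CoREST and NuRD, had 105, 105 and 102 CPM in GSK591 libraries, 131, 126 and 128 CPM in MS023 libraries, and 133, 132 and 127 CPM in DMSO libraries. MS023 and DMSO overlapped, and GSK591 lay below both (-0.33 ± 0.03, adjusted p = 7.58e-07, against DMSO). KDM1B (LSD2) fell in both treated groups, by 0.23 ± 0.04 with GSK591 (adjusted p = 0.000477) and by 0.27 ± 0.04 with MS023 (adjusted p = 0.000156).

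Of the 14 tested JmjC demethylases, 8 were higher, 1 lower and 5 not called with GSK591, beside 30.1% higher and 32.4% lower of all genes tested. With MS023, 7 were higher, 1 lower and 6 not called, beside 25.1% and 25.9% of all genes. Against GSK591, 6 were higher and 6 lower with MS023, beside 33.6% and 31.7% of all genes. KDM4A, which removes methyl groups from H3K9 and H3K36, had 48.6, 46.9 and 49.98 CPM in GSK591 libraries, 36.4, 35.7 and 37.4 CPM in MS023 libraries, and 34.4, 35.2 and 35.8 CPM in DMSO libraries. GSK591 stood above both other groups (0.46 ± 0.04, adjusted p = 1.11e-07), which overlapped. Its paralogs KDM4B and KDM4C, with the same substrates, were also higher with GSK591 (0.31 ± 0.05, adjusted p = 0.000145, and 0.18 ± 0.05, adjusted p = 0.00309), though KDM4C not in FPKM (adjusted p = 0.28). KDM4D, the exception, had 13, 13 and 34 counts in GSK591 libraries, 50, 32 and 40 counts in MS023 libraries, and 45, 70 and 87 counts in DMSO libraries. It lay lowest with GSK591 and between the other groups with MS023 (-1.70 ± 0.26, adjusted p = 4.96e-05, and -0.81 ± 0.23, adjusted p = 0.0093, against DMSO), and the difference between the inhibitors (0.89 ± 0.28, adjusted p = 0.0122) was lost without GSK591 replicate 2 (adjusted p = 0.0695).

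The remaining JmjC members other than KDM8 act on H3K4, H3K27, H3K9 or H3K36. KDM6B (JMJD3), an H3K27 demethylase, had 44.9, 42.6 and 39.7 CPM in GSK591 libraries, 37.8, 39.4 and 36.3 CPM in MS023 libraries, and 31.8, 28.3 and 31.4 CPM in DMSO libraries. All treated libraries lay above DMSO (0.48 ± 0.06, adjusted p = 3.21e-06, and 0.31 ± 0.06, adjusted p = 0.000292), but in FPKM without a filter neither change passed (adjusted p = 0.0845 and 0.87), and with a filter of FPKM 1 in 3 libraries the GSK591 change did (adjusted p = 0.0237). Its X-linked paralog KDM6A (UTX) was higher with MS023 (0.19 ± 0.04, adjusted p = 0.000575). Of the H3K4 demethylases, KDM5D, the Y-linked member, averaged 41.2 ± 1.81 CPM with GSK591, 32.8 ± 1.77 CPM with MS023 and 29.5 ± 1.78 CPM with DMSO (0.48 ± 0.05, adjusted p = 2.17e-06, with GSK591). The MS023 change of KDM5D (0.15 ± 0.05, adjusted p = 0.0311) lost its call without DMSO replicate 1 or 2 or MS023 replicate 2 or 3 (adjusted p between 0.057 and 0.138). KDM5B rose in both groups, by 0.14 ± 0.04 with GSK591 (adjusted p = 0.00657, but 0.0856 in FPKM) and by 0.31 ± 0.04 with MS023 (adjusted p = 1.93e-05), KDM5C changed by 0.13 with MS023 (adjusted p = 0.0152; 0.0649 without MS023 replicate 2 and 0.0538 without MS023 replicate 3), and KDM5A did not pass with either inhibitor. In FPKM the MS023 changes of KDM5C and KDM5D did not pass. KDM3B, an H3K9 demethylase, and KDM2B, an H3K36 demethylase, were higher with MS023, both by 0.21 (adjusted p = 0.000158 and 0.000578). KDM2A, the paralog of KDM2B, was higher with GSK591 (0.13 ± 0.03, adjusted p = 0.00291; 0.083 in FPKM). KDM8, at 3.43 CPM with GSK591, 2.79 CPM with MS023 and 2.57 CPM with DMSO, had a GSK591 change of 0.40 ± 0.13 (adjusted p = 0.0148) that lost its call without GSK591 replicate 2 (adjusted p = 0.0659) and in FPKM (adjusted p = 0.254).

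PRDM proteins are zinc finger transcription factors with a SET-like domain, most of them restricted to particular lineages, and 12 of the 15 were tested. PRDM14 had 1 count, PRDM9 had 2 and PRDM7 had 6 over all 9 libraries, so no fold is given for them. With GSK591 5 of the 12 were higher and none lower, beside 30.1% and 32.4% of all genes tested. With MS023 2 were higher and 3 lower, beside 25.1% and 25.9% of all genes. PRDM1 (Blimp-1), a repressor best known from plasma cells, fell by 0.35 ± 0.06 with MS023 (adjusted p = 0.000357; 0.0772 in FPKM), and PRDM2 (RIZ) fell by 0.16 ± 0.04 with MS023 (adjusted p = 0.00383). PRDM10 rose by 0.25 ± 0.06 with MS023 (adjusted p = 0.00302; 0.225 in FPKM). PRDM11 rose by 0.39 ± 0.12 with GSK591 (adjusted p = 0.011). PRDM13, a regulator of neuronal fate, had 1.86, 1.90 and 1.81 CPM in GSK591 libraries, 1.25, 1.30 and 1.22 CPM in MS023 libraries, and 1.38, 1.26 and 1.38 CPM in DMSO libraries. It lay above both other groups with GSK591 (0.48 ± 0.14, adjusted p = 0.00985, but 0.0769 with DESeq2). PRDM6, known from smooth muscle, had 11, 26 and 18 counts in GSK591 libraries, 5, 5 and 3 counts in MS023 libraries, and 6, 1 and 12 counts in DMSO libraries. Its change of 1.55 ± 0.49 with GSK591 (adjusted p = 0.0128) was lost without GSK591 replicate 2 (adjusted p = 0.0741), and the MS023 and DMSO libraries overlapped. On these few counts PRDM6 was lower with MS023 than with GSK591 (-2.17, adjusted p = 0.00215), a call kept without any 1 library but not in FPKM. PRDM16, a regulator of brown fat, had an MS023 change of 0.57 ± 0.22 (adjusted p = 0.0425) that was lost without any 1 of 6 libraries (DMSO 1 and 3, GSK591 2, MS023 1, 2 and 3; adjusted p between 0.0538 and 0.159). PRDM4 and PRDM8 were the other GSK591 calls (0.11, adjusted p = 0.0291, and 1.31, adjusted p = 0.0146), lost without DMSO 3, GSK591 2 or GSK591 3 (adjusted p between 0.0586 and 0.111) and without DMSO 2 or GSK591 1 (adjusted p between 0.0682 and 0.0759).

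**Figure D3:**
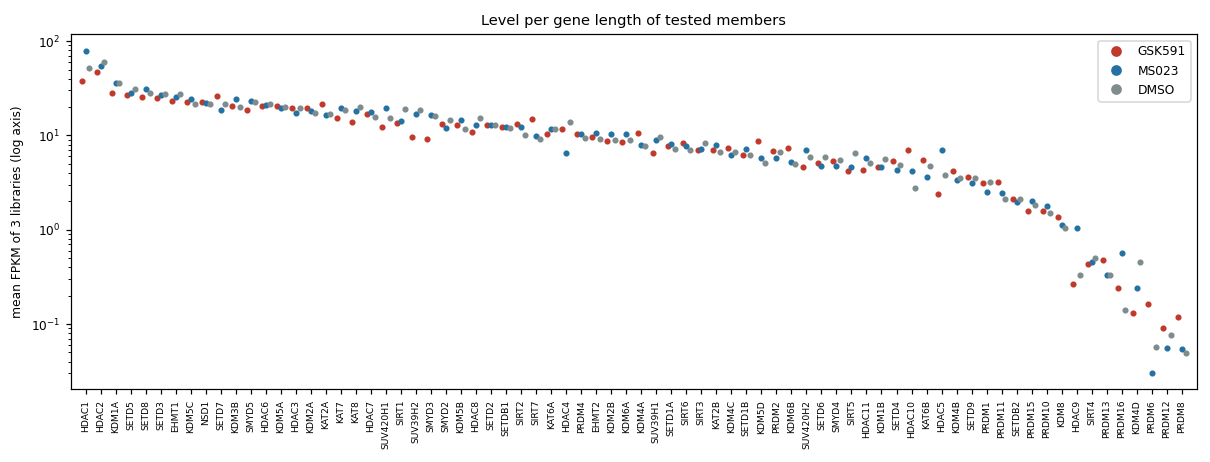
Mean FPKM of 3 libraries for the same tested members in the GSK591 (red), MS023 (blue) and DMSO (grey) groups, on a log axis, with members ordered by their mean over the groups. HDAC1 and HDAC2 stand highest, most members lie between 1 and 30 FPKM, and HDAC9, KDM4D, SIRT4 and 5 PRDM genes fill the low end.

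Levels between genes were compared per length, in the authors' FPKM. HDAC1 had the highest level with MS023, at 79.5 FPKM, against 37.8 FPKM with GSK591 and 52.2 FPKM with DMSO, and HDAC2 had 46.6 FPKM with GSK591, 54.0 FPKM with MS023 and 60.0 FPKM with DMSO. HDAC2 thus stood above HDAC1 in every GSK591 and DMSO library and below it in every MS023 library. KDM1A followed, with 28.2 FPKM with GSK591, 36.02 FPKM with MS023 and 36.4 FPKM with DMSO. HDAC4 had 11.9 FPKM with GSK591, 6.53 FPKM with MS023 and 14.01 FPKM with DMSO, and HDAC5 had 2.39 FPKM with GSK591, 7.03 FPKM with MS023 and 3.86 FPKM with DMSO, so HDAC4 stood above HDAC5 in every GSK591 and DMSO library, and below it in every MS023 library, where the ranges of the 2 genes overlapped.

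The direct comparison set MS023 against GSK591, both seeded alike. Beyond HDAC1, the largest increases with MS023 over GSK591 by the naming rule were HDAC9 (1.86 ± 0.17, adjusted p = 2.34e-07), HDAC5 (1.42 ± 0.07, adjusted p = 8.79e-11), SUV39H2, SUV420H2 and SMYD3 (0.56 ± 0.06, adjusted p = 5.62e-07). Decreases named by the same rule were HDAC4 (-1.18 ± 0.07, adjusted p = 7.83e-10), HDAC10 (-1.09 ± 0.18, adjusted p = 8.75e-05), KAT6B, SIRT7 and PRDM13 (-0.56 ± 0.14, adjusted p = 0.00303). SETD7 (-0.50 ± 0.03, adjusted p = 9.33e-09) and KDM4A (-0.41 ± 0.04, adjusted p = 3.14e-07) were also lower with MS023 than with GSK591, and KDM1A (0.31 ± 0.03, adjusted p = 1.51e-06) and SUV39H1 (0.41 ± 0.05, adjusted p = 7.81e-06) higher.

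The partners of these enzymes were described from lists written with earlier results known, by counts beside the shares of all genes called given above. Of 37 tested subunits of the HDAC1, HDAC2 and HDAC3 complexes, 8 were higher and 22 lower with GSK591 (median log2 change -0.16), 11 higher and 4 lower with MS023 (0.02), and 24 higher and 8 lower with MS023 than with GSK591 (0.23). The medians over all genes tested lay within 0.01 of 0. The CoREST scaffold RCOR2 (-1.17 ± 0.11, adjusted p = 1.92e-07) and the SIN3 subunit SAP30 (-0.67 ± 0.08, adjusted p = 5.95e-06) fell most with GSK591, and SIN3B (0.38 ± 0.05, adjusted p = 1.58e-05) and BRMS1L (0.38 ± 0.04, adjusted p = 3.33e-06) rose most. With MS023 the LSD1 complex subunit HMG20B (0.58 ± 0.04, adjusted p = 7.21e-09) and RCOR3 (0.47 ± 0.05, adjusted p = 8.35e-07) rose most, and SAP30L fell by 0.23 ± 0.05 (adjusted p = 0.00247). Of 15 partners of the MLL and SETD1 enzymes, 2 were higher and 8 lower with GSK591, and 2 higher and 4 lower with MS023. BOD1L1, a SETD1A partner, was opposite in the treated groups (0.57 ± 0.05, adjusted p = 1.68e-07, with GSK591 and -0.51 ± 0.05, adjusted p = 1.03e-06, with MS023), and PSIP1 (LEDGF) fell by 0.90 ± 0.04 with GSK591 (adjusted p = 1.81e-10). Of 20 SAGA and ATAC subunits, 2 were higher and 10 lower with GSK591, and 2 higher and 5 lower with MS023, with TAF5L up by 0.92 ± 0.04 (adjusted p = 3.83e-10) and SUPT3H down (-0.83 ± 0.11, adjusted p = 2.71e-05) in MS023. Of 19 partners of KAT6A, KAT6B, KAT7 and KAT8, 5 were higher and 6 lower with GSK591, and 9 higher and 3 lower with MS023.

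Among 22 writers and erasers outside the symbol patterns, 5 were higher and 12 lower with GSK591, and 7 higher and 8 lower with MS023. HAT1, the acetyltransferase of newly made H4, fell by 0.71 ± 0.04 with GSK591 (adjusted p = 8.44e-10) and WHSC1 (NSD2) by 0.67 ± 0.03 (adjusted p = 2.08e-10), while CREBBP and EP300 rose by 0.23 and 0.20 (adjusted p = 0.000628 and 0.000889). DOT1L, the H3K79 methyltransferase, rose by 0.49 ± 0.05 with MS023 (adjusted p = 3.02e-06), and ASH1L fell by 0.35 ± 0.03 (adjusted p = 3.51e-07). Of 18 readers of H3K9 methylation and heterochromatin proteins, 5 were higher and 9 lower with GSK591, and 6 higher and 3 lower with MS023. The CAF-1 subunits CHAF1B (-0.79 ± 0.05, adjusted p = 7e-09) and CHAF1A (-0.62 ± 0.05, adjusted p = 3.21e-08) fell most with GSK591, and CDYL was higher with GSK591 (0.39 ± 0.04, adjusted p = 1.42e-06) and lower with MS023 (-0.33 ± 0.04, adjusted p = 1.57e-05). A list of 25 cell cycle genes was set beside these results. With GSK591 all 25 were lower and none higher (median -0.78), and with MS023 4 were higher and 10 lower (median -0.03). Between the inhibitors all 25 were higher with MS023 (median 0.81). The part of the cell cycle in the changes of SUV39H1, SUV39H2, HDAC1, the H4K20 methyltransferases and the partner genes was not tested.

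**Figure D4:**
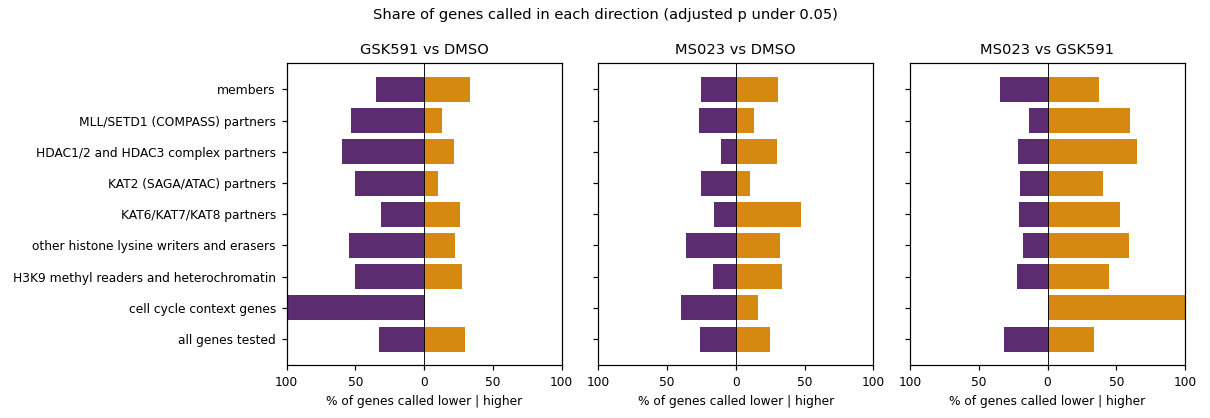
Share of tested genes called higher (orange, to the right) or lower (purple, to the left) in each of the 3 comparisons, for the 75 tested members, 7 lists of related genes and all 18292 genes tested, in percent of the tested genes of each row. The members' bars resemble those of all genes in length, the 37 HDAC complex partners lean to lower with GSK591 (22 lower, 8 higher), and the 25 cell cycle genes reach the edge in the first and last panels.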

How the data were processed

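RNA was measured in 9 A549 libraries, 3 per group. The authors deposited a table of read counts per gene, not normalised, and 9 tables of FPKM (fragments per kilobase, relative to sequencing depth) in Cufflinks' layout. Per the submitters' processing notes, cutadapt, STAR, featureCounts and DESeq2 were used with build hg19. For versions, annotation and strand setting, the sources used here give nothing.

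Members were found by symbol in the FPKM tables and joined to the counts by gene identifier. The members, their classes and the partner lists were chosen with earlier results of these data known. Counts were fitted in R 4.3.3 with edgeR 4.0.16 (filterByExpr, minimum count 10 and minimum total 15, TMM scaling, quasi-likelihood test, group as the only term, all 9 libraries). P-values were adjusted by Benjamini-Hochberg over 18292 genes. CPM was computed from the deposited counts after TMM scaling. An SE is the size of the log2 change divided by the square root of F. The scripts were tested on simulated counts.

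Named members are, for each inhibitor against DMSO, the 12 largest changes each way with adjusted p under 0.05, at least 1 CPM on average and no overlap between groups, and 6 each way between the inhibitors. To these come the largest change of each class, every member called in opposite directions, and up to 2 genes each way per partner list. Other members were named after their values were seen, to account for the set; 1 member and 1 marker gene are not reported here by name or value, though member counts include that member. Alternatives were other scalings (RLE, total counts), other filters, a replicate block, leaving out libraries, only the 6 libraries compared, DESeq2 1.42.0, glmTreat at a log2 change of 0.5, an adjusted p of 0.01, and limma 3.58.1 on log2(FPKM + 1) and log2(FPKM + 0.1). Leaving out DMSO replicate 1 and GSK591 replicate 3 together was chosen after seeing the data.

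Of the members, 23 overlap another tested gene, and without a known strand setting their counts are uncertain. Reads are not independent molecules, so the errors cover amplification only where libraries differed in it.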

Additional observations from a re-analysis of the deposited data

How the results depend on the processing

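Over the alternatives, changes of single members stayed on their side of the threshold 4349 times, lost a call 506 times, gained one 53 times and reversed 3 times. A reversal was counted only for a change called in the main fit or in the alternative. Changes called in neither may have switched sign and are among the 4349. The reversals were all HDAC3 with GSK591, whose FPKM change was 0.0149 at a pseudocount of 1, 0.0154 at 0.1 and 0.0149 with a filter of FPKM 1 in 3 libraries (adjusted p = 0.905, 0.906 and 0.834), and the cause was not tested. Apart from glmTreat and the stricter adjusted p of 0.01, every alternative that gave the gene a value kept 27 of the 51 GSK591 calls, 22 of the 42 MS023 calls and 30 of the 54 between the inhibitors. Against a log2 change of 0.5 (glmTreat), 2 members were higher and 3 lower with GSK591, 3 higher and 1 lower with MS023, and 5 higher and 4 lower between the inhibitors. This test asks for a larger change. Among all 18292 genes, 2041 were higher and 1216 lower with GSK591, 917 and 880 with MS023, and 1740 and 2437 between the inhibitors. In FPKM with a pseudocount of 1, 13 of 77 members were higher and 17 lower with GSK591, 14 higher and 11 lower with MS023, and 20 higher and 14 lower between the inhibitors. Beside them, 3769 of 31609 genes were higher and 4906 lower with GSK591, 2851 and 2624 with MS023, and 5371 and 4091 between the inhibitors. With a pseudocount of 0.1, 12 members were higher and 18 lower with GSK591, 15 higher and 10 lower with MS023, and 19 higher and 15 lower between the inhibitors. All 31609 genes gave 3690 higher and 4929 lower with GSK591, 2833 and 2674 with MS023, and 5358 and 4046 between the inhibitors. With the FPKM filter, 13 of 67 members were higher and 19 lower with GSK591, 13 higher and 16 lower with MS023, and 19 higher and 19 lower between the inhibitors, and the median of all genes shifted to -0.10 with GSK591. Among the 13588 genes left, 2792 were higher and 5251 lower with GSK591, 2835 and 2947 with MS023, and 5302 and 3069 between the inhibitors. Not every call lost in FPKM is named above, and why FPKM gave fewer calls was not tested. Leaving out 1 library gave 21 to 25 members higher and 21 to 27 lower with GSK591, 16 to 24 higher and 17 to 20 lower with MS023, and 23 to 29 higher and 21 to 27 lower between the inhibitors. Among all genes the ranges were 5111 to 5690 higher and 5392 to 6016 lower with GSK591, of 18611 to 18955 tested. With MS023 they were 3921 to 4844 higher and 4061 to 4757 lower, and between the inhibitors 5717 to 6312 and 5468 to 6052. DESeq2 called 20 members higher and 25 lower with GSK591, 20 and 20 with MS023, and 25 and 24 between the inhibitors. Among all genes it called 4872 of 22877 higher and 5577 lower with GSK591, and 4038 and 4282 of 20912 with MS023. Between the inhibitors it called 5782 higher and 5382 lower of 24841.

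The replicate numbers are not shown to pair the libraries, since over 9 same-numbered pairs the deviations from the group means correlated with r between -0.43 and 0.258, and in 2 pairs above 0.1. With the replicate block, 25 members were higher and 26 lower with GSK591, 21 higher and 19 lower with MS023, and 26 higher and 25 lower between the inhibitors. All 18292 genes gave 5362 higher and 5783 lower with GSK591, 4382 and 4473 with MS023, and 6026 and 5616 between the inhibitors. At these depths, members near or under 1 CPM such as KDM4D, PRDM6 and PRDM8 rest on few counts per library.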
